A study of Mus musculus with 6 samples.

Results

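Solute carriers are the membrane proteins that move amino acids, sugars, nucleosides, vitamins, metals and ions across membranes, and their genes are named Slc with a family number. The genes described here were the rows named Slc and a number, leaving out the mitochondrial Slc25 family and the iron and heme carriers Slc40a1, Slc11a1 and Slc48a1, with a mean of at least 1 TPM (a transcripts-per-million value) over the 6 libraries. Of 323 rows with such a name among 24411 genes, 142 were members. TPM is corrected for the length of a gene, so levels of different genes can be compared on it. The mean TPM chose the members, so their levels are given as a description. The lowest members were Slc18a2 at 1.08 TPM and Slc18b1 at 1.13 TPM, and the nearest rows outside were Slc22a21 at 0.957 TPM and the pseudogene Slc2a4rg-ps at 0.902 TPM. The set was proposed as carriers of the plasma membrane, and that name did not hold for all of it: 62 of the 142 were listed, from general knowledge of the families, as working mainly inside the cell or as proteins that only borrow a carrier's name.

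The macrophages came from C57BL/6 mice, whose bone marrow gave the monocytes they were grown from. These monocytes were sorted by flow cytometry into cells low in both integrins LFA1 and Itgam (LFA1-lo) and cells high in both (LFA1-hi), and each was kept for 7 days in RPMI medium with 10% FBS and 20 ng/ml of M-CSF, the growth factor that makes monocytes into macrophages. There were 3 RNA-seq libraries for each sort, all of 1 strain, with no genetic change or further treatment named in the labels. The comparison asks how macrophages from the 2 kinds of monocyte differ in RNA after the same culture. The labels leave unsaid if each library had its own animal or culture, so p-values here measure the spread among the 3 samples of a group and no more, and that spread may be technical. In RNA from whole cultures, fewer cells of a type and less RNA per cell cannot be told apart.

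Carriers work in ways that set what a cell can take up. Some let a substrate run down its gradient, some couple it to sodium or protons, and some exchange one substrate for another. Slc3a2, also called CD98, is a heavy chain that brings several Slc7 light chains to the surface, where they swap one amino acid for another. Macrophages also carry many transporters on lysosomes, which export the amino acids, sugars, nucleosides and sulphate released when engulfed material is digested. Transporters of the Golgi and endoplasmic reticulum bring in nucleotide sugars for glycosylation, and zinc carriers of the Slc39 family move zinc into the cytosol while those of the Slc30 family move it out.

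The libraries held 15191262 to 17614509 summed expected counts. Markers of macrophages fixed in a list were all present: their summed level was 18314 to 24183 CPM (library-scaled counts-per-million) in LFA1-lo and 14732 to 16952 CPM in LFA1-hi, with 1 of 10 higher and 5 lower in LFA1-hi at an edgeR adjusted p under 0.05. The falls numbered 3 to 7 with a library left out, and no rise was called without LFA1-lo replicate 3. The neutrophil list summed to 126 to 213 CPM (LFA1-lo) and 104 to 132 CPM (LFA1-hi), of which Mmp8 alone gave 48.8 to 135 CPM, and S100a9, Ltf and Csf3r were lower in LFA1-hi. The dendritic cell list summed to 47.1 to 232 CPM (LFA1-lo) and 109 to 277 CPM (LFA1-hi), nearly all of it Itgax, with Flt3 and Ccr7 at 0 in every library. The list for T and NK cells summed to 3.64 to 5.23 CPM (LFA1-lo) and 0.168 to 0.503 CPM (LFA1-hi), and its 1 tested gene was lower in LFA1-hi. That for mast cells and basophils summed to 0.895 to 1.34 CPM and 0 to 0.335 CPM, and its 1 tested gene was lower too. That gene was not called without LFA1-hi replicate 2 or 3 or LFA1-lo replicate 1. The stem and progenitor cell list summed to 22.8 to 47.7 CPM and 19.7 to 24.6 CPM, with 2 of 5 tested genes lower. The stromal and endothelial list summed to 13.5 to 19.7 CPM and 22.5 to 26.7 CPM, so its groups did not overlap, and none of its 3 tested genes passed. Without LFA1-lo replicate 3, 2 genes of this list were called higher. B cell genes summed to 1.37 to 4.35 CPM and 2.30 to 3.02 CPM, and red cell genes to 0.319 to 1.41 CPM and 0.382 to 0.559 CPM. The defining markers Pax5, Cd3e, Cd3d, Cpa3 and Fcer1a were at 0 in every library. The part of these cell types in the results below was not tested. LFA1-lo replicate 2 stood apart among the LFA1-lo libraries: its log CPM over all tested genes correlated with replicates 1 and 3 at 0.972 and 0.969, against 0.979 between those 2, while the LFA1-hi libraries correlated at 0.984 to 0.988. For many results that change without this or another library, the value without it is given.

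Levels across the 142 genes ran from 1.08 to 451 TPM, with a median of 18.5 TPM. The highest was Slc6a6, the taurine transporter, at a mean of 451 TPM over the 6 libraries. It was followed by Slc3a2 at 236, the neutral amino acid exchanger Slc7a8 at 233, the branched-chain amino acid transporter Slc43a2 at 201, the sugar phosphate antiporter Slc37a2 at 191, the zinc importer Slc39a1 at 185, the lysosomal peptide and histidine transporter Slc15a3 at 155 and the fatty acid transport protein Slc27a1 at 105 TPM. These 8 were the members at 100 TPM or more, and 23 members lay under 5 TPM. The 10 highest members held 37.0% to 40.5% of the summed TPM of all members in each library. The members together summed to 5359, 5421 and 5195 TPM in LFA1-lo replicates 1, 2 and 3 and to 4811, 4858 and 4754 TPM in LFA1-hi, so the groups did not overlap and the sum was lower in LFA1-hi.

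**Figure D1:**
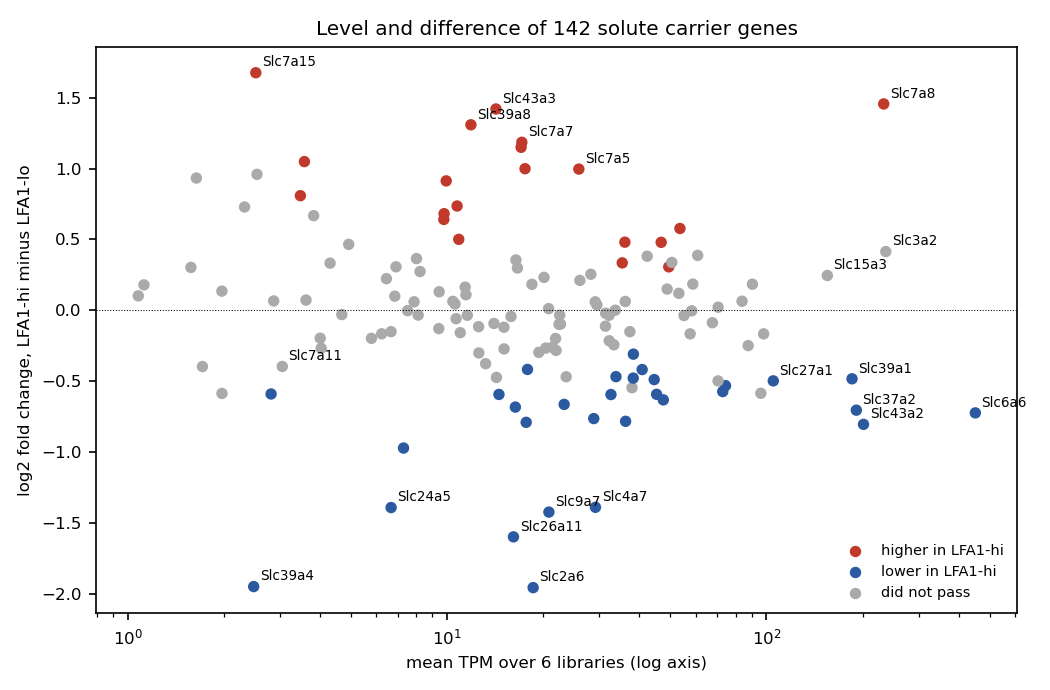
Mean TPM of each of the 142 solute carrier genes over the 6 libraries (x axis, log scale) against its log2 fold change, LFA1-hi minus LFA1-lo (y axis), coloured by the call. Slc6a6 lies at the far right and fell, while Slc7a8, at about the level of Slc3a2 and Slc43a2, rose.

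All 142 members passed the filter on low counts and were tested by edgeR's quasi-likelihood test over 11692 genes, with Benjamini-Hochberg adjustment. Of them 50 changed at an adjusted p under 0.05, which is 35.2% of the members beside 31.7% of all genes tested. There were 20 higher in LFA1-hi (14.1%, beside 16.1% of all genes) and 30 lower (21.1%, beside 15.6%). Among all tested genes with a mean of at least 1 TPM, as the members have, 32.8% changed, 16.7% upward and 16.0% downward. The share that changed thus lay near that of genes at large. With libraries scaled by their totals alone, the split of the members was 24 higher (beside 19.6% of all genes) and 26 lower (beside 12.6%), and 60.9% of all calls were upward in place of 50.8%, with the median of all genes moved to 0.06. Changes of at least 2-fold were called in 13 members (9.15%, beside 9.13% of all genes), 7 higher (4.93%, beside 5.32%) and 6 lower (4.23%, beside 3.81%). The 6 CPM values of a gene did not overlap between the groups for 68 members (47.9%, beside 47.8% of all genes), with LFA1-hi above for 29 (20.4%, beside 24.8%) and below for 39 (27.5%, beside 22.9%). The median log2 fold change, LFA1-hi minus LFA1-lo as throughout, was −0.03 over the members and 0.00 over all genes. For 55 members (38.7%) the 95% interval of the difference lay within 1.5-fold in both directions, a share not counted over all genes. Of the 62 members inside the cell or not carriers, 4 rose (6.45%) and 13 fell (21.0%). Of the other 80, 16 rose (20.0%) and 17 fell (21.2%), beside 16.1% and 15.6% of all genes. The 80 are the members not listed as inside the cell, so the split is rough. Slc36a4 was counted among the 80 but stands below with the carriers of lysosomes. Slc11a2, described below as a carrier out of endosomes, was counted there too.

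Single libraries moved these counts. Without LFA1-lo replicate 2, 70 members changed, 31 higher and 39 lower, and 49 of the 50 were among them. Without LFA1-hi replicate 1 or replicate 2, 33 changed in each case, 12 of them higher. Calls over all genes moved the same way, from 3705 to 5032 without LFA1-lo replicate 2 and to 2342 and 2288 without LFA1-hi replicate 1 or 2. There were 31 members called with all libraries and in each of the 6 fits that left one out, 11 higher and 20 lower. The like count over all genes was not made. The 11 were Slc16a6, Slc19a2, Slc20a1, Slc28a2, Slc35g1, Slc39a8, Slc43a3, Slc7a5, Slc7a6, Slc7a7 and Slc7a8. The 20 were Slc11a2, Slc12a9, Slc16a7, Slc17a5, Slc24a5, Slc26a11, Slc27a1, Slc29a3, Slc2a6, Slc30a4, Slc37a2, Slc37a3, Slc38a7, Slc39a1, Slc39a4, Slc43a2, Slc44a1, Slc4a7, Slc6a6 and Slc9a7. Other settings ended some calls. Limma-trend on log2(TPM + 0.1) with no filter ended those of Slc12a7, Slc15a4, Slc16a1, Slc22a4, Slc35e3 and Slc5a6 (adjusted p = 0.0523 to 0.0664). With or without the filter, limma-trend on TPM ended those of Slc30a5, Slc5a3, Slc7a15 and Slc8b1 (adjusted p = 0.0545 to 0.153). Scaling by library totals alone ended those of Slc31a2, Slc4a2 and Slc8b1 (edgeR adjusted p = 0.0529 to 0.0548).

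**Figure D2:**
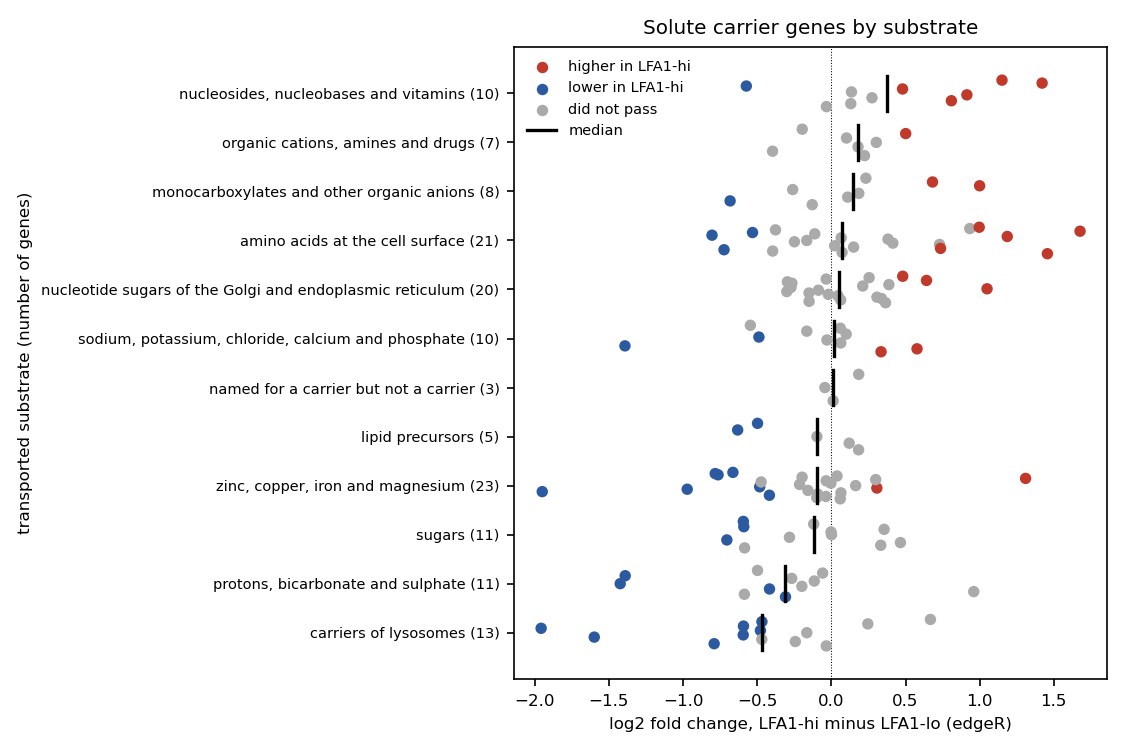
Log2 fold change (x axis, LFA1-hi minus LFA1-lo) of each of the 142 genes, grouped in rows by transported substrate with the number of genes in brackets; each point is a gene, coloured by its call, and bars mark group medians. Lysosomal carriers lie mostly left of 0 and have no called rise, with a median of −0.47.

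The counts by substrate that follow stand beside 16.1% of all tested genes that rose and 15.6% that fell. No substrate group was tested against those shares. Amino acid carriers of the cell surface numbered 21, of which 5 rose, 3 fell and 13 did not pass the test in LFA1-hi (median log2 fold change 0.07). The rises were in the Slc7 family and the falls in Slc6a6, Slc6a8 and Slc43a2. Slc7a8, the light chain known as LAT2, which exchanges neutral amino acids (GRCm38 chromosome 14, 54722215 to 54781886), stood at 239, 263 and 297 CPM (LFA1-lo) and 803, 713 and 677 CPM (LFA1-hi), with values from here on in the order of replicates 1, 2 and 3. All 3 LFA1-hi libraries were more than 2 times the highest LFA1-lo library (log2 fold change 1.46 with an SE of 0.10, adjusted p = 2.78e-05). Slc7a5, the light chain LAT1 that imports large neutral amino acids such as leucine, stood at 26.2, 43.5 and 26.1 CPM (LFA1-lo) and 62.2, 68.6 and 60.2 CPM (LFA1-hi) (log2 fold change 1.00 with an SE of 0.19, adjusted p = 0.00566). Its groups did not overlap, and LFA1-lo replicate 2 was the highest of the LFA1-lo libraries. Slc7a7, the light chain y+LAT1 that exports arginine and lysine in exchange for neutral amino acids (GRCm38 chromosome 14, 54369442 to 54420068), stood at 13.7, 7.21 and 13.1 CPM (LFA1-lo) and 31.3, 25.3 and 20.8 CPM (LFA1-hi) (log2 fold change 1.19 with an SE of 0.25, adjusted p = 0.00745). Slc7a6, its close relative y+LAT2, stood at 19.0, 15.1 and 13.5 CPM (LFA1-lo) and 27.3, 24.8 and 27.2 CPM (LFA1-hi) (0.74, adjusted p = 0.00482). Both had every LFA1-hi library above every LFA1-lo library. Slc7a7 overlaps Oxa1l in the annotation, and no source used here says whether the counting used strand, so reads of the 2 cannot be told apart with certainty. Oxa1l had a log2 fold change of −0.35 (adjusted p = 0.0786).

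The remaining light chain, Slc7a11, which imports cystine in exchange for glutamate, stood at 13.2, 31.7 and 7.81 CPM (LFA1-lo) and 11.8, 11.8 and 16.3 CPM (LFA1-hi) and did not pass the test (−0.40, adjusted p = 0.567). LFA1-lo replicate 2 was its highest library, and without it the log2 fold change was 0.34, adjusted p = 0.257. Summed over the 5 light chains, the level was 155, 164 and 177 TPM in LFA1-lo and 445, 419 and 378 TPM in LFA1-hi. Slc7a8 gave 75.9 ± 3.66% of that sum in LFA1-lo and 82.1 ± 0.563% in LFA1-hi (SD, n = 3). Their heavy chain Slc3a2 stood at 235, 337 and 231 CPM (LFA1-lo) and 372, 350.0 and 348 CPM (LFA1-hi). Every LFA1-hi library was above every LFA1-lo library, but the adjusted p of 0.0509 missed the threshold at a log2 fold change of 0.41 (95% interval 0.10 to 0.73). Without LFA1-lo replicate 2 the difference was 0.61, adjusted p = 2.11e-06, and it also passed with DESeq2 (adjusted p = 0.0217).

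The arginine importers Slc7a1 and Slc7a2 did not pass. Slc7a1 stood at 131, 195 and 104 CPM (LFA1-lo) and 178, 190.3 and 191 CPM (LFA1-hi) (0.38, adjusted p = 0.195), and without LFA1-lo replicate 2, its highest LFA1-lo library, the difference was 0.67, adjusted p = 5.79e-05. Slc7a2 had a log2 fold change of 0.73, adjusted p = 0.167. Slc7a15 had the largest rise by fold but few reads, 45 counts over the LFA1-lo libraries and 147 over the LFA1-hi libraries. It stood at 1.25, 0.511 and 0.940 CPM (LFA1-lo) and 2.07, 4.39 and 2.30 CPM (LFA1-hi) (log2 fold change 1.68 with an SE of 0.48, adjusted p = 0.0249), and its adjusted p was 0.13 and 0.0511 without LFA1-hi replicate 2 or 3.

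**Figure D3:**
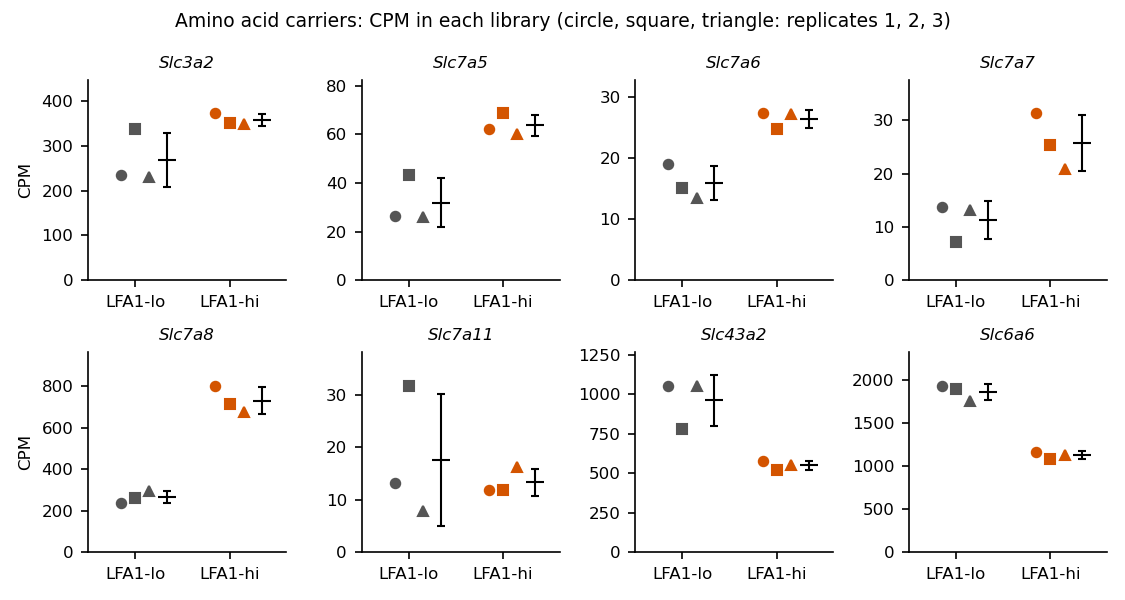
CPM of 8 amino acid carriers in each library (y axis, linear from 0, own scale per gene), LFA1-lo beside LFA1-hi, with circles, squares and triangles for replicates 1, 2 and 3 and bars for the mean ± SD of 3 libraries. Slc7a8 and Slc7a5 lie higher in all LFA1-hi libraries, Slc6a6 and Slc43a2 lie lower, and the LFA1-lo replicate 2 square stands far above the others for Slc7a11.

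Among the carriers that fell, Slc6a6 imports taurine with sodium and chloride, and stood at 1939, 1898 and 1756 CPM (LFA1-lo) and 1172, 1081 and 1133 CPM (LFA1-hi) (log2 fold change −0.72 with an SE of 0.08, adjusted p = 0.000203). It held 10.6 ± 0.485% of the summed TPM of all members in LFA1-lo and 7.00 ± 0.161% in LFA1-hi (SD, n = 3). Slc6a8, the creatine transporter, stood at 169.7, 231 and 152 CPM (LFA1-lo) and 130.2, 121 and 132 CPM (LFA1-hi) (−0.53, adjusted p = 0.0217), and its adjusted p was 0.0626 to 0.0896 without LFA1-hi replicate 1, 2 or 3. Slc43a2, known as LAT4, lets branched-chain amino acids pass without exchange and stood at 1053, 777 and 1054 CPM (LFA1-lo) and 579, 522 and 549 CPM (LFA1-hi) (log2 fold change −0.81 with an SE of 0.12, adjusted p = 0.0012). For each of these 3 genes the LFA1-hi libraries all lay below the LFA1-lo libraries. The glutamine carriers Slc38a2 and Slc1a5 did not pass: Slc38a2 had a log2 fold change of −0.17, adjusted p = 0.147, and Slc1a5 of −0.11, adjusted p = 0.749. Slc1a5 passed without LFA1-lo replicate 2 and then lay the other way (0.25, adjusted p = 0.0496), and Slc38a2 passed without LFA1-lo replicate 3 (−0.23, adjusted p = 0.0443). Without LFA1-lo replicate 2, 9 of the 21 genes were called higher, and without LFA1-lo replicate 3, 5 were called lower.

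The promoter of Slc7a11 is shown because the gene is a textbook target of ATF4, the regulator of the amino acid stress response, and because its level and that of Atf4 were both highest in LFA1-lo replicate 2. This is 1 library, and it was the highest LFA1-lo library for 57 of the 142 members. A link between Atf4 and Slc7a11 was not tested. These are the 250 bases before a start site in RefSeq (build GRCm38.p6, chr3:50443614-50443863, minus strand), which lies 55474 bases inside the longest annotated extent of the gene. Capitals mark TGATGNAA, the amino acid response element bound by ATF4, read on either strand.
Slc7a11: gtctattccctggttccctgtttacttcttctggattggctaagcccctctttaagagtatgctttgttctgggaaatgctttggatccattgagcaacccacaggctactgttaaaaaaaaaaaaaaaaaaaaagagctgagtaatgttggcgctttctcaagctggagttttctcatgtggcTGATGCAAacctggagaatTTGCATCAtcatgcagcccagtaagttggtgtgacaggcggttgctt
The element starts 66 and 47 bases before the start site, in opposite orientations. Over all members with a promoter in the table, 5 of 109 hold it (4.59%), beside 4.51% of 27025 genes.

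Carriers of lysosomes numbered 13, of which 7 fell, none rose and 6 did not pass in LFA1-hi (median −0.47). Of all tested genes, 15.6% fell and 16.1% rose. Each single library left out kept 6 to 8 falls, and 1 rise appeared without LFA1-lo replicate 2. Slc2a6, the glucose transporter family member GLUT6, which resides on lysosomes (GRCm38 chromosome 2, 27021363 to 27028000), had the largest fall of all members. It stood at 30.0, 31.7 and 33.1 CPM (LFA1-lo) and 7.83, 7.26 and 9.29 CPM (LFA1-hi) (log2 fold change −1.96 with an SE of 0.14, adjusted p = 2.62e-05). Slc26a11, a sulphate transporter, stood at 40.3, 18.8 and 40.8 CPM (LFA1-lo) and 11.0, 11.4 and 10.6 CPM (LFA1-hi) (log2 fold change −1.60 with an SE of 0.28, adjusted p = 0.00372), and LFA1-lo replicate 2 was the lowest LFA1-lo library. It overlaps Sgsh, the lysosomal sulphamidase, which had a log2 fold change of −0.48 (adjusted p = 0.257). Slc12a9, a relative of the cation-chloride cotransporters, stood at 40.4, 35.5 and 40.3 CPM (LFA1-lo) and 23.8, 21.9 and 21.5 CPM (LFA1-hi) (log2 fold change −0.79 with an SE of 0.11, adjusted p = 0.00068). In each of these 3 genes the LFA1-hi libraries all lay below the LFA1-lo libraries.

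Slc29a3, which lets nucleosides out of lysosomes, stood at 109.5, 107 and 113 CPM (LFA1-lo) and 66.9, 76.2 and 75.2 CPM (LFA1-hi) (−0.59, adjusted p = 0.000848). Slc17a5, known as sialin, exports sialic acid and stood at 98.5, 74.2 and 103 CPM (LFA1-lo) and 62.8, 62.3 and 57.5 CPM (LFA1-hi) (−0.59, adjusted p = 0.00633). Slc38a7, a glutamine exporter, stood at 61.4, 67.6 and 72.4 CPM (LFA1-lo) and 49.6, 46.4 and 49.6 CPM (LFA1-hi) (−0.47, adjusted p = 0.00447). Slc15a4, which exports histidine and small peptides and is known for its part in signalling by endosomal Toll-like receptors, had a log2 fold change of −0.48, adjusted p = 0.0212, with an adjusted p of 0.057 to 0.0938 without LFA1-hi replicate 1, 2 or 3 or LFA1-lo replicate 1 or 3. All 7 genes that fell had the 3 LFA1-hi libraries below the 3 LFA1-lo libraries. Slc46a3 had a log2 fold change of −0.47, adjusted p = 0.286 with overlapping groups, LFA1-lo replicate 2 being far below the other 2 LFA1-lo libraries, and it passed without that library (−0.77, adjusted p = 5.99e-05). Slc15a3, the highest lysosomal member, stood at 153, 213 and 142 CPM (LFA1-lo) and 188, 189.9 and 224 CPM (LFA1-hi) (0.25, adjusted p = 0.252), and without LFA1-lo replicate 2 the difference was 0.44, adjusted p = 0.00065. Slc38a9, the lysosomal arginine sensor of the mTORC1 pathway, and Slc36a1, a proton-coupled amino acid exporter, had log2 fold changes of −0.17 and −0.03 and did not pass (adjusted p = 0.339 and 0.893).

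**Figure D4:**
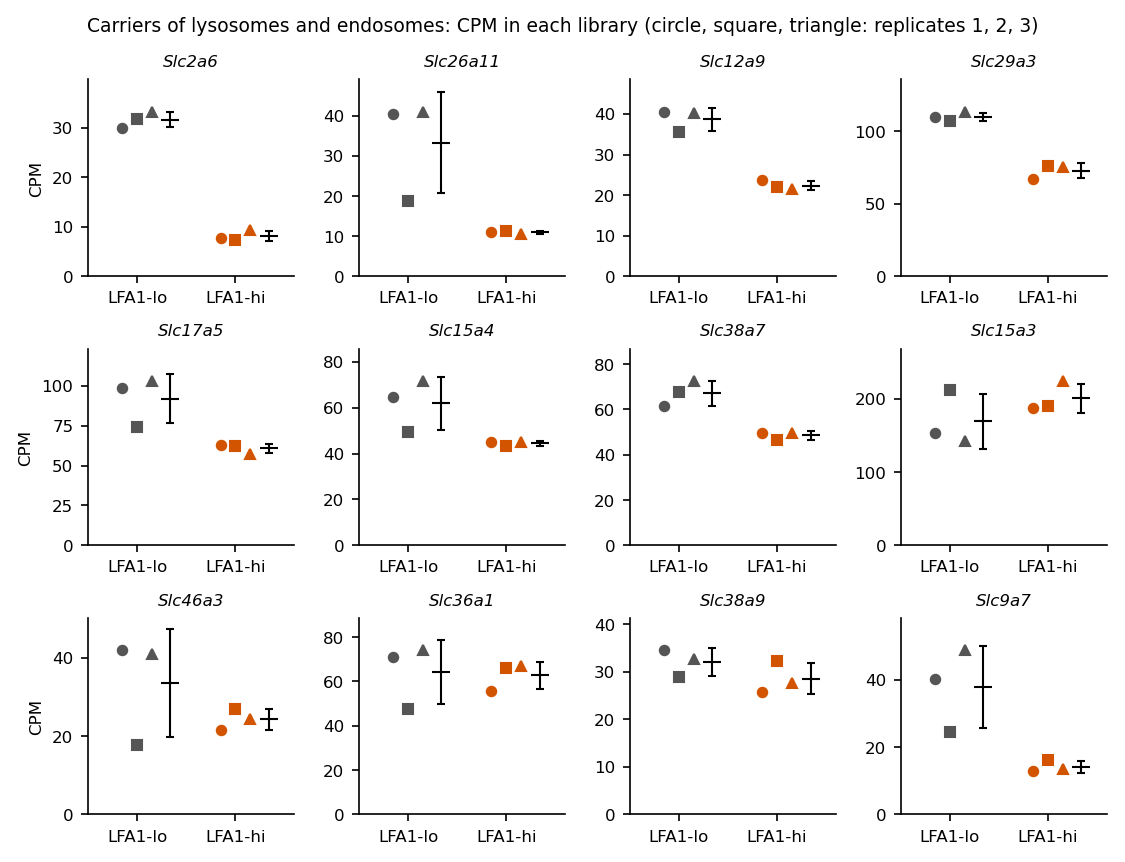
CPM of 11 carriers of lysosomes, and of Slc9a7 of the trans-Golgi network, in each library (y axis, linear from 0, own scale per gene), LFA1-lo beside LFA1-hi, with circles, squares and triangles for replicates 1, 2 and 3 and bars for the mean ± SD of 3 libraries. The LFA1-hi values of Slc2a6 and Slc26a11 lie far below the LFA1-lo values. The lysosomal members Slc17a9 and Slc36a4 are not plotted.

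Promoters of lysosomal genes are known to hold the palindrome CACGTG, the E-box core read by TFEB and related factors. That of Slc36a1, a lysosomal member that did not pass, is shown because it holds the core (chr11:55204090-55204339, plus strand, RefSeq, GRCm38.p6, 250 bases before a start site 18 bases inside the outermost one), with CACGTG in capitals.
Slc36a1: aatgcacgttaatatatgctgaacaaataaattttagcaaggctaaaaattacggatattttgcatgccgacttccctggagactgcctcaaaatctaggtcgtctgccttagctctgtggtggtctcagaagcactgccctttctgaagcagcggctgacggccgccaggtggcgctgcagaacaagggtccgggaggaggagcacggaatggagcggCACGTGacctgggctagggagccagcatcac
The core starts 31 bases before the start site. The stretch searched for the counts runs past the start site, and in it Slc36a1 holds the core 2 times. The core is in 3 of the 10 lysosomal members with a promoter in the table. Besides Slc36a1 these are Slc12a9 and Slc38a7, which fell. A link between the core and these falls was not tested. The longer CLEAR element, which holds CACGTG with 2 further letters on each side, is in 0 of the 109 members and in 0.370% of all genes.

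Sugar carriers numbered 11, of which 3 fell and none rose (median −0.12), and 1 rise appeared without LFA1-lo replicate 3. Slc37a2, an antiporter of the endoplasmic reticulum that exchanges glucose 6-phosphate for phosphate, stood at 512, 619 and 521 CPM (LFA1-lo) and 344, 334 and 336 CPM (LFA1-hi) (log2 fold change −0.70 with an SE of 0.09, adjusted p = 0.000444). Its relative Slc37a3 stood at 38.5, 36.6 and 37.5 CPM (LFA1-lo) and 25.7, 23.9 and 25.0 CPM (LFA1-hi) (−0.59, adjusted p = 0.00177). Slc5a3, which imports myo-inositol with sodium, fell with a log2 fold change of −0.59, adjusted p = 0.0309, and the adjusted p was 0.105 to 0.125 without LFA1-hi replicate 1 or 2 or LFA1-lo replicate 1. It overlaps Mrps6, which had a log2 fold change of 0.04 (adjusted p = 0.913). Slc2a1, the glucose transporter GLUT1 (GRCm38 chromosome 4, 119108745 to 119137330), stood at 154, 206 and 96.0 CPM (LFA1-lo) and 103, 98.8 and 102 CPM (LFA1-hi). LFA1-lo replicate 3 lay below every LFA1-hi library and the other 2 LFA1-lo libraries at or above them, so the groups overlapped and the test did not pass (log2 fold change −0.59 with an SE of 0.24, adjusted p = 0.108). Without that library the difference was −0.83, adjusted p = 0.00091, and DESeq2 with all libraries gave an adjusted p of 0.025. Slc2a3, the high-affinity glucose transporter GLUT3, stood at 10.0, 5.49 and 10.3 CPM (LFA1-lo) and 10.7, 13.8 and 11.3 CPM (LFA1-hi) (0.47, adjusted p = 0.179). The 5 members of the Slc2 family summed to 185, 205 and 150.1 TPM in LFA1-lo and to 123, 122 and 121 TPM in LFA1-hi.

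Monocarboxylate and other organic anion carriers numbered 8, of which 2 rose and 1 fell (median 0.15). Slc16a6, a relative of the lactate carriers, stood at 24.5, 22.9 and 30.1 CPM (LFA1-lo) and 48.9, 52.6 and 53.6 CPM (LFA1-hi) (log2 fold change 1.00 with an SE of 0.12, adjusted p = 0.000364). It overlaps Arsg, whose log2 fold change was 0.02 (adjusted p = 0.953). Slc16a1, known as MCT1, which moves lactate and pyruvate with protons, stood at 18.1, 22.7 and 12.6 CPM (LFA1-lo) and 29.2, 28.2 and 28.0 CPM (LFA1-hi) (0.68, adjusted p = 0.0233), and its adjusted p was 0.0659 to 0.0831 without LFA1-hi replicate 1, 2 or 3 or LFA1-lo replicate 1. Slc16a7, known as MCT2 and also a pyruvate and lactate carrier, stood at 23.6, 21.8 and 28.9 CPM (LFA1-lo) and 14.8, 14.8 and 16.7 CPM (LFA1-hi) (log2 fold change −0.68 with an SE of 0.14, adjusted p = 0.00607). Thus 2 carriers of the same substrates moved in opposite directions. Slc16a3, the lactate exporter MCT4 and the highest of the 8, stood at 63.2, 93.0 and 53.0 CPM (LFA1-lo) and 87.2, 75.2 and 75.2 CPM (LFA1-hi) (0.19, adjusted p = 0.498). LFA1-lo replicate 2 was its highest LFA1-lo library, and without it the difference was 0.45, adjusted p = 0.00211. The count of rises was 5 without LFA1-lo replicate 2 and 1 without any 1 of LFA1-hi replicates 1, 2 and 3 and LFA1-lo replicate 1.

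Nucleoside, nucleobase and vitamin carriers numbered 10, of which 5 rose and 1 fell (median 0.38). Slc43a3, a purine nucleobase carrier, stood at 8.95, 7.47 and 14.5 CPM (LFA1-lo) and 25.0, 29.6 and 28.4 CPM (LFA1-hi) (log2 fold change 1.42 with an SE of 0.23, adjusted p = 0.00175). Slc28a2, which concentrates purine nucleosides with sodium, stood at 23.0, 18.4 and 24.2 CPM (LFA1-lo) and 52.8, 47.1 and 45.9 CPM (LFA1-hi) (log2 fold change 1.15 with an SE of 0.13, adjusted p = 0.000224). Slc19a2, a thiamine transporter, stood at 15.5, 12.1 and 11.0 CPM (LFA1-lo) and 24.0, 25.6 and 23.2 CPM (LFA1-hi) (0.91, adjusted p = 0.00183). In all 3 genes each LFA1-hi library was above each LFA1-lo library, and they passed in every fit that left out a library. Slc29a1, the equilibrative nucleoside transporter ENT1, had a log2 fold change of 0.48, adjusted p = 0.0138, with an adjusted p of 0.0655 and 0.0532 without LFA1-hi replicate 1 or 2. Slc5a6, which imports biotin and pantothenate, had a log2 fold change of 0.81, adjusted p = 0.0235, with an adjusted p of 0.0528 to 0.0896 without LFA1-hi replicate 1, 2 or 3 or LFA1-lo replicate 3. It overlaps Atraid, at −0.32 (adjusted p = 0.103). Slc23a2, a vitamin C transporter and the highest of the 10, stood at 274, 387 and 239 CPM (LFA1-lo) and 197, 203 and 205 CPM (LFA1-hi) and fell (−0.57, adjusted p = 0.0272), with an adjusted p of 0.0761 to 0.0883 without LFA1-hi replicate 1, 2 or 3. The count of rises was 3 without LFA1-hi replicate 1 or 2, and no fall was called without any 1 of the LFA1-hi libraries.

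The 20 members of the Slc35 family, most of which carry nucleotide sugars into the Golgi or endoplasmic reticulum, held 3 rises and no fall (median 0.05). Slc35g1 stood at 3.70, 4.98 and 4.05 CPM (LFA1-lo) and 7.43, 10.4 and 8.57 CPM (LFA1-hi) (log2 fold change 1.05 with an SE of 0.22, adjusted p = 0.00645). Slc35e3 stood at 14.0, 12.2 and 15.6 CPM (LFA1-lo) and 23.4, 24.3 and 17.6 CPM (LFA1-hi) (0.64, adjusted p = 0.0152), with an adjusted p of 0.0718 and 0.0741 without LFA1-hi replicate 1 or 2. Slc35c2 had a log2 fold change of 0.48, adjusted p = 0.0138, with an adjusted p of 0.0644 and 0.062 without LFA1-hi replicate 1 or 2. Slc35f6, the highest of the 20, stood at 102, 119 and 114 CPM (LFA1-lo) and 107, 98.1 and 111 CPM (LFA1-hi) (−0.09, adjusted p = 0.489). The other 17 members, Slc35f6 included, ran from −0.30 to 0.39 on the log2 scale and did not pass, among them the CMP-sialic acid transporter Slc35a1 at 0.04 and the UDP-galactose transporter Slc35a2 at −0.27. The count of rises was 1 without LFA1-hi replicate 1 or 2, and 6 rises and 2 falls were called without LFA1-lo replicate 2.

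Of 5 carriers of lipid precursors, 2 fell and none rose (median −0.10), in every fit that left out a library. Slc27a1, a fatty acid transport protein, stood at 164, 194 and 173 CPM (LFA1-lo) and 135, 115 and 126 CPM (LFA1-hi) (−0.50, adjusted p = 0.00392). Slc44a1, a choline transporter, stood at 75.0, 104 and 74.6 CPM (LFA1-lo) and 52.0, 56.0 and 55.3 CPM (LFA1-hi) (−0.63, adjusted p = 0.00624). Their LFA1-hi libraries all lay below their LFA1-lo libraries. Its relative Slc44a2 had a log2 fold change of 0.12, adjusted p = 0.525.

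Carriers of zinc, copper, iron and magnesium numbered 23, of which 2 rose and 7 fell (median −0.10). Slc39a8, known as ZIP8, brings zinc, manganese and iron into the cytosol (GRCm38 chromosome 3, 135816882 to 135888572) and stood at 13.0, 8.36 and 15.4 CPM (LFA1-lo) and 33.1, 27.3 and 31.1 CPM (LFA1-hi) (log2 fold change 1.31 with an SE of 0.20, adjusted p = 0.00153). It made up 1.42 ± 0.543% of the summed TPM of the 11 Slc39 members in LFA1-lo and 3.89 ± 0.231% in LFA1-hi (SD, n = 3). Slc39a1, the surface zinc importer that was the highest of the family, stood at 252, 287 and 231 CPM (LFA1-lo) and 184, 175 and 192 CPM (LFA1-hi) and fell (log2 fold change −0.48 with an SE of 0.09, adjusted p = 0.00401). Slc39a4, the zinc importer ZIP4, stood at 3.52, 4.28 and 5.46 CPM (LFA1-lo) and 1.40, 0.828 and 1.18 CPM (LFA1-hi) (log2 fold change −1.95 with an SE of 0.34, adjusted p = 0.00256), on 219 counts over the LFA1-lo libraries and 59 over the LFA1-hi libraries. These importers thus moved in opposite directions, ZIP8 upward and the others downward. Slc39a10, another zinc importer, fell with a log2 fold change of −0.66, adjusted p = 0.0478, and its adjusted p was 0.103 to 0.121 without LFA1-hi replicate 1, 2 or 3 or LFA1-lo replicate 1. Its call also ended under voom, limma-trend on TPM, no filter, upper quartile scaling and library totals alone (adjusted p = 0.0514 to 0.0915).

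On the side of zinc export, Slc30a1, which carries zinc out across the plasma membrane, stood at 84.1, 136 and 85.3 CPM (LFA1-lo) and 55.2, 60.7 and 63.5 CPM (LFA1-hi) (−0.76, adjusted p = 0.0147), with an adjusted p of 0.0605 and 0.0511 without LFA1-hi replicate 1 or 2. Slc30a4, which loads zinc into vesicles, stood at 29.6, 32.8 and 23.0 CPM (LFA1-lo) and 16.5, 11.0 and 15.9 CPM (LFA1-hi) (log2 fold change −0.97 with an SE of 0.19, adjusted p = 0.00435). Slc30a5, a zinc carrier of the secretory pathway, was the second rise, at 0.31, adjusted p = 0.0438, with an adjusted p of 0.0832 to 0.146 without LFA1-hi replicate 1, 2 or 3 or LFA1-lo replicate 1. Slc11a2, known as DMT1, carries ferrous iron out of endosomes after transferrin uptake and stood at 73.6, 98.1 and 64.2 CPM (LFA1-lo) and 49.4, 38.1 and 49.4 CPM (LFA1-hi) (log2 fold change −0.78 with an SE of 0.17, adjusted p = 0.00833). Slc31a2, a copper transporter relative, fell at −0.42, adjusted p = 0.0364, with an adjusted p of 0.057 to 0.147 without LFA1-hi replicate 1 or 2 or LFA1-lo replicate 1, while the copper importer Slc31a1 stood at −0.04 (adjusted p = 0.835). The count of falls was 4 without LFA1-hi replicate 2. The count of rises was 1 without any 1 of LFA1-hi replicates 1, 2 and 3 and LFA1-lo replicate 1.

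Proton, bicarbonate and sulphate carriers numbered 11, of which 4 fell and none rose (median −0.31). Slc9a7, a sodium-proton exchanger of the trans-Golgi network, stood at 40.3, 24.6 and 48.8 CPM (LFA1-lo) and 12.8, 16.2 and 13.5 CPM (LFA1-hi) (log2 fold change −1.42 with an SE of 0.24, adjusted p = 0.00276), with LFA1-lo replicate 2 the lowest of its group. It overlaps Chst7, which fell by 3.14 on the log2 scale (adjusted p = 0.00383) at a low level. The means of Chst7 were 2.98 CPM (LFA1-lo) and 0.335 CPM (LFA1-hi). Slc4a7, which imports bicarbonate with sodium, stood at 160.5, 228 and 119 CPM (LFA1-lo) and 65.3, 60.6 and 67.6 CPM (LFA1-hi) (log2 fold change −1.39 with an SE of 0.21, adjusted p = 0.00224), and its LFA1-hi libraries all lay well below its LFA1-lo libraries. Slc26a2, a sulphate transporter, had a log2 fold change of −0.42, adjusted p = 0.0109, with an adjusted p of 0.0543 without LFA1-hi replicate 1. Slc4a2, a chloride-bicarbonate exchanger, had a log2 fold change of −0.31, adjusted p = 0.028, with an adjusted p of 0.0669 to 0.124 without LFA1-hi replicate 1, 2 or 3 or LFA1-lo replicate 1. Slc9a9, an endosomal sodium-proton exchanger and the highest of the 11, stood at 163, 101 and 187 CPM (LFA1-lo) and 108, 109.7 and 102 CPM (LFA1-hi) with overlapping groups (−0.50, adjusted p = 0.0934), and without LFA1-lo replicate 2 the difference was −0.72, adjusted p = 2.95e-06. DESeq2 with all libraries gave an adjusted p of 0.0331. The count of falls was 2 without LFA1-hi replicate 1, and 1 rise appeared without LFA1-lo replicate 3.

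Of 10 carriers of sodium, potassium, chloride, calcium and phosphate, 2 rose and 2 fell (median 0.02). Slc20a1, which imports phosphate with sodium, stood at 73.1, 78.2 and 65.5 CPM (LFA1-lo) and 106, 106 and 111 CPM (LFA1-hi) (log2 fold change 0.58 with an SE of 0.09, adjusted p = 0.00132). Slc12a7, a potassium-chloride cotransporter, had a log2 fold change of 0.33, adjusted p = 0.0262, with an adjusted p of 0.0604 to 0.0955 without LFA1-hi replicate 1, 2 or 3 or LFA1-lo replicate 1 or 3. Its relative Slc12a4 stood at −0.55 (adjusted p = 0.0533), with an adjusted p of 0.0223 and 0.005 without LFA1-lo replicate 2 or 3 and of 0.0142 with DESeq2. Slc24a5, a sodium-calcium exchanger that depends on potassium and is known from pigment cells, stood at 10.7, 7.59 and 9.75 CPM (LFA1-lo) and 3.69, 2.93 and 4.03 CPM (LFA1-hi) (log2 fold change −1.39 with an SE of 0.23, adjusted p = 0.00178). It overlaps Myef2, which rose by 0.77 on the log2 scale (adjusted p = 0.0023). Slc8b1, the calcium exchanger of mitochondria, had a log2 fold change of −0.49, adjusted p = 0.0258, with an adjusted p of 0.0633 to 0.102 without LFA1-hi replicate 1, 2 or 3 or LFA1-lo replicate 1 or 3. Both counts were 1 in each fit without 1 of LFA1-hi replicates 1, 2 and 3 and LFA1-lo replicate 1, and 4 falls were called without LFA1-lo replicate 2. Of 7 carriers of organic cations, amines and drugs, 1 rose (median 0.18). It was Slc22a4, the ergothioneine transporter and the highest of the 7, at 0.50, adjusted p = 0.0385, with an adjusted p of 0.0531 to 0.153 without LFA1-hi replicate 1 or 3 or LFA1-lo replicate 1, 2 or 3. The 3 genes named for a carrier that are not carriers, Slc9a3r1, Slc4a1ap and Slc7a6os, had log2 fold changes of 0.18, 0.01 and −0.04, and none passed. Slc9a3r1, a scaffold protein under the membrane, passed without LFA1-lo replicate 3 (0.27, adjusted p = 0.0427).

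Members were steadier in LFA1-hi than in LFA1-lo: the median coefficient of variation of CPM was 14.8% in LFA1-lo and 7.04% in LFA1-hi, beside 13.9% and 7.81% over all tested genes. LFA1-lo replicate 2 was the lowest LFA1-lo library for 55 of the 142 members and the highest for 57. Replicate 1 was lowest for 36 and highest for 31, and replicate 3 was lowest for 51 and highest for 54. Against the mean of replicates 1 and 3, the log2 CPM of replicate 2 was farthest below for Slc46a3, at −1.21.

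**Figure D5:**
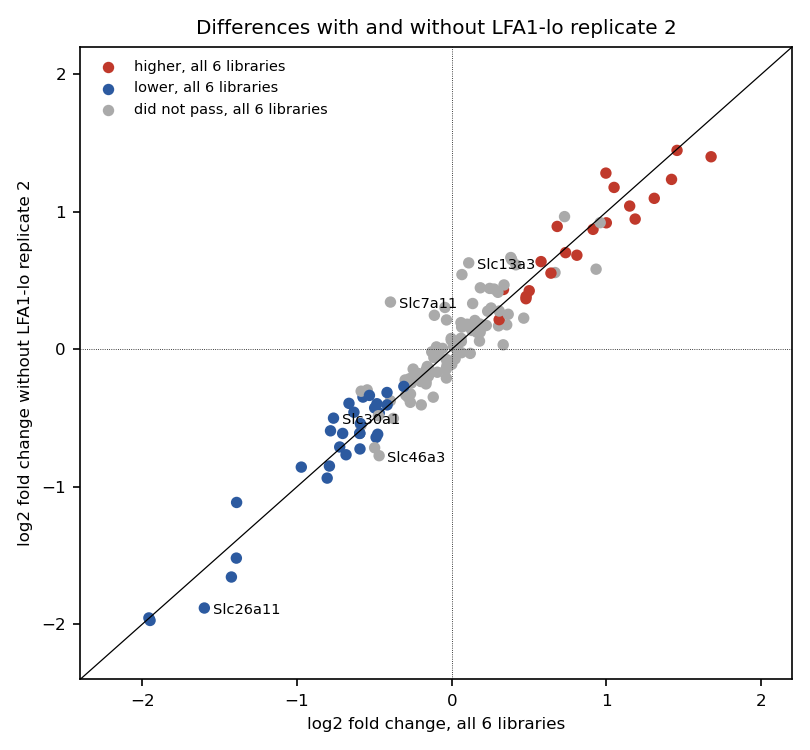
Log2 fold change (LFA1-hi minus LFA1-lo) of each of the 142 genes with all 6 libraries (x axis) against the same without LFA1-lo replicate 2 (y axis), coloured by the call with all 6; the diagonal marks equal values. Slc7a11 moves from −0.40 to 0.34, and all 50 called genes keep their direction.

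Genes of the same pathways were counted from lists given by function, with the range of each count over the 6 fits that left out a library. Beside these counts, 16.1% of all tested genes rose and 15.6% fell, and no list was tested against those shares. Calls over all genes went from 3705 to 5032 without LFA1-lo replicate 2, and to 2342 and 2288 without LFA1-hi replicate 1 or 2. Of 11 chaperones and partners of carriers, a list that includes Slc3a2, described above, 1 rose (0 to 3, the most without LFA1-lo replicate 2, none without LFA1-hi replicate 3 or LFA1-lo replicate 1) and 3 fell (2 to 5, the most without LFA1-lo replicate 2). Emb, the chaperone of MCT2, fell from 208 ± 32.6 to 117 ± 12.7 CPM (−0.83, adjusted p = 0.00136, mean ± SD, n = 3), in the direction of Slc16a7. Bsg, the chaperone of MCT1 and MCT4, had means of 187 ± 14.8 CPM (LFA1-lo) and 214 ± 8.30 CPM (LFA1-hi) (0.20, adjusted p = 0.0959).

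Of 31 genes of amino acid sensing by mTORC1, the kinase complex that couples amino acid supply to growth, 1 rose and 5 fell. Among the falls were Sesn1, a sestrin, from 199 ± 63.5 to 102 ± 4.68 CPM (−0.96, adjusted p = 0.014), and Rptor, a subunit of mTORC1, from 149.7 ± 22.0 to 100.4 ± 9.63 CPM (−0.58, adjusted p = 0.00625). These counts were 2 and 8 without LFA1-lo replicate 2, and in the other 5 fits no gene rose and 1 to 3 fell, 1 of them without LFA1-hi replicate 2. Of 20 genes of the amino acid stress response, 4 rose and 2 fell, with 11 rises without LFA1-lo replicate 2 and 1 fall without LFA1-hi replicate 1 or 2 or LFA1-lo replicate 3. Their regulator Atf4 stood at 179, 270.4 and 165 CPM (LFA1-lo) and 197, 197 and 209 CPM (LFA1-hi) (−0.03, adjusted p = 0.915), highest in LFA1-lo replicate 2. Of 13 genes of arginine, glutamine and glutathione metabolism, 3 rose and 2 fell, with 3 falls without LFA1-lo replicate 2 and 1 in each other fit.

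Of 21 enzymes of glucose and lactate metabolism, 8 rose and 1 fell. Without LFA1-lo replicate 2 the rises numbered 16, and they numbered 2 with LFA1-lo replicate 1 left out, 3 with LFA1-hi replicate 1 or 3 left out and 5 with LFA1-hi replicate 2 left out, and 3 falls were called without LFA1-lo replicate 2. The 11 sugar carriers, in the same libraries, held no rise. Of 17 genes of metal storage and response, 2 rose and 3 fell, with 6 falls without LFA1-lo replicate 2 and 1 rise without LFA1-hi replicate 1 or 3 or LFA1-lo replicate 3. The transferrin receptor Tfrc, which takes up the iron that Slc11a2 carries on, rose from 158 ± 27.1 to 357 ± 36.1 CPM (1.18, adjusted p = 0.000254), while Slc11a2 itself fell. The metallothionein Mt1 and the zinc-sensing regulator Mtf1 had log2 fold changes of 0.09 and 0.02 (adjusted p = 0.631 and 0.894).

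Of 14 ion pumps and genes of volume and pH control, 3 rose and 2 fell, with 1 fall without any 1 of LFA1-hi replicates 1, 2 and 3 and LFA1-lo replicate 1. Of 20 enzymes of nucleoside and folate metabolism, 6 rose and 3 fell, and the counts stayed at 4 to 7 and at 3 in the 6 fits. Of 13 surface transporters that are not Slc genes, 2 rose and 4 fell, with 7 falls when LFA1-lo replicate 2 was left out, 2 when LFA1-hi replicate 2 or LFA1-lo replicate 1 was, and 1 rise without any 1 of LFA1-hi replicates 1, 2 and 3 and LFA1-lo replicate 1.

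Promoters in the RefSeq table matched 109 of the 142 members. Of 7 motifs searched on both strands in the 300 bases from 250 before to 50 after the start site, CACGTG was in 20 of the 109 (18.3%), beside 8.09% of all 27025 genes and 12.0% of tested genes. It was in 8 of the 17 members that rose, 5 of the 22 that fell and 7 of the 70 that did not pass. Among all tested genes the shares were 11.4% of those that rose, 10.5% of those that fell and 12.5% of those that did not pass. Members that rose had 2.06 promoters each in the table and those that did not pass 1.19, and counted over promoters rather than genes the shares were 25.7% and 8.43%. Promoters of members were also richer in G and C than promoters at large, with a median of 61.7% against 52.7%. The antioxidant response element TGACNNNGC was in 22.9% of members and 14.0% of all genes, the AP-1 site TGANTCA in 7.34% and 8.97%, and the metal response core TGCGCNC in 29.4% and 17.0%, with its second form TGCACNC in 23.9% and 14.2%. Unlike CACGTG, these motifs and the content of G and C were not counted over tested genes, so part of these differences may belong to expressed genes at large. CACGTG overlaps the CLEAR element, and a match is a description of letters only. Shown here, with CACGTG in capitals, are the promoters of 3 members of different families that rose, and of 1 that fell. The phosphate importer Slc20a1 (chr2:129198523-129198772, plus strand), the lactate carrier Slc16a1 (chr3:104638414-104638663, plus strand) and the Slc35 family member Slc35e3 (chr10:117746359-117746608, minus strand) rose. The Slc37 family member Slc37a3 (chr6:39377708-39377957, minus strand) fell. Each is the 250 bases before a start site in GRCm38.p6.
Slc20a1: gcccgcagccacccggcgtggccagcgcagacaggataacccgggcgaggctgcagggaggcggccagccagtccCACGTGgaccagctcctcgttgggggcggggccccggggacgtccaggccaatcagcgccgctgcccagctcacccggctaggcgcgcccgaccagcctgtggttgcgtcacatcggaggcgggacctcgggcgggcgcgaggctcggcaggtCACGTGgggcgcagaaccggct
Slc16a1: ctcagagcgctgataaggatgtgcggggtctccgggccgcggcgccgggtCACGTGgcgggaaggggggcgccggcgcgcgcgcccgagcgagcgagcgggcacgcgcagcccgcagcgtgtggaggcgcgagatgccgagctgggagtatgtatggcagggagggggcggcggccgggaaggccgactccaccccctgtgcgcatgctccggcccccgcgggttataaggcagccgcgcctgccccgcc
Slc35e3: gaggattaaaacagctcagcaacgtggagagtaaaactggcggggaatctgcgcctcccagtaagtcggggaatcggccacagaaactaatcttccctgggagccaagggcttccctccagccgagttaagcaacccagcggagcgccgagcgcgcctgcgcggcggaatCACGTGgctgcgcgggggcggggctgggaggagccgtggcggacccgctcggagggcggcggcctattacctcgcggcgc
Slc37a3: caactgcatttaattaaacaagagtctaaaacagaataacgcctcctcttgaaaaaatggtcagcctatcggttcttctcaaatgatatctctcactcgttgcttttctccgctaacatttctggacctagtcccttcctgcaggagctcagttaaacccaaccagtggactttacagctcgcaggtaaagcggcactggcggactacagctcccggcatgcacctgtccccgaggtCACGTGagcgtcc
The core starts 175 and 22 bases before the start of Slc20a1, 200 bases before that of Slc16a1, 80 bases before that of Slc35e3 and 13 bases before that of Slc37a3. These members carried the same letters and moved in both directions.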

How the data were processed

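RNA-seq was deposited for 6 libraries, 3 from LFA1-lo and 3 from LFA1-hi monocytes after culture. Per the submitters' processing notes, the tools were bcl2fastq, Trim Galore and RSEM, with the genome build GRCm38, while which aligner and annotation release were used, and whether reads were counted by strand, is not given in the sources used here. Per the file headers, each library's table gives RSEM expected counts and TPM for 24411 genes. The deposited expected counts were rounded and tested with edgeR 4.0.16 in R 4.3.3 (robust quasi-likelihood fit, filterByExpr, TMM scaling, no covariate), with Benjamini-Hochberg adjustment over the 11692 genes that passed and a threshold of 0.05. The deposited TPM values chose the members and served to compare levels. CPM values are TMM-scaled counts. Intervals are 95%. DESeq2 1.42.0, limma 3.58.1 and other scalings, filters and thresholds were alternatives, and each library was left out in turn. The scripts were tested on simulated data with 3 libraries in each group. There the test recovered 50 of 100 genes changed 1.5-fold and 76 of 100 changed 2-fold. Of its 145 calls at the threshold of 0.05, 19 were false, a larger share than that threshold sets. The simulation changed 100 genes at each fold among 11677 tested, while 3705 of 11692 were called in the data. Its rates of recovery and of false calls therefore need not hold for the data.

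The members and lists were chosen with earlier results of these data known. Named in full were the 10 largest rises and 10 largest falls among members past the threshold without overlap, and in each role the highest member and up to 2 of its largest called changes. A further 38 members, among them Slc3a2, Slc2a1 and Slc7a11, were added after their values were seen. So were Slc17a9, Slc36a4 and the companion genes named with values. The values of 1 member that this rule names are not reported here. Roles and places in the cell came from general knowledge of the families. RefSeq genes and promoters of GRCm38.p6 matched 142 and 109 members. In that annotation 62 members overlap another gene.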

Additional observations from a re-analysis of the deposited data

How the results depend on the processing

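Of the members, 46 to 54 were called in place of 50 under DESeq2, voom, other scalings and filters, the fit without robust estimation, the replicate block and log2(TPM + 0.1) or log2(TPM + 1) with the same filter, and 39 without a filter on log2(TPM + 0.1), of which 13 were higher. Over all genes, the first settings called 3253 (replicate block) to 3949 (DESeq2) in place of 3705. Without a filter on log2(TPM + 0.1), 3139 of 15068 genes were called, 1593 of them higher. A test against a change of 1.5-fold called 11, with 5 higher and 6 lower. Over all genes it called 832 of 11692, with 481 higher and 351 lower. A threshold of 0.01 called 31 members, with 11 higher, and was not counted over all genes. Leaving out the members inside the cell left 33 called, 17 of them lower. Leaving out each replicate in turn gave 33 to 70 called, 12 to 31 higher and 21 to 39 lower. The median log2 fold change of −0.03 became −0.092 with at least 10 CPM in 3 libraries, 0.025 with library totals alone, −0.017 with voom, −0.017 with the replicate block, 0.0093 without the members inside the cell and −0.056 to −0.022 with each replicate left out. A mean TPM of at least 0.5 gave 154 members, and of at least 2, 135. Same-numbered libraries did not deviate together (correlations 0.04, 0.02 and −0.07), and not every library correlated best with its own number. The main fit therefore did not use the number as a pairing. With so few libraries, these correlations cannot show whether same-numbered libraries shared an animal or culture. The replicate block called 48 members, 20 higher and 28 lower, ending the calls of Slc7a15 (adjusted p = 0.0607), Slc30a5, Slc31a2, Slc4a2 and Slc5a3 (0.0583 to 0.0685) and adding Slc3a2 (0.0386), Slc12a4 (0.0497) and Slc35a4 (0.0366). In all, 33 members, 0 of them called, changed direction under at least 1 alternative. Direction turned for Slc18a2 without LFA1-hi replicate 1 (−0.00058 in log2), LFA1-hi replicate 3 (−0.14) or LFA1-lo replicate 1 (−0.13), within a range of −0.14 to 0.40 over the replicates left out. It turned for Slc18b1 without LFA1-hi replicate 1 (range −0.11 to 0.47), and without LFA1-lo replicate 2 for Slc7a11 (range −0.75 to 0.34) and Slc1a5 (range −0.27 to 0.25). Among members near 0 it also turned with a replicate left out for Slc36a1 (range −0.21 to 0.082), Slc31a1 (−0.15 to 0.087), Slc44a2 (−0.030 to 0.22), Slc7a6os (−0.24 to 0.30) and Slc4a1ap (−0.038 to 0.052). With library totals alone it turned for Slc36a1 (0.024), Slc31a1 (0.023) and Slc7a6os (0.025), which also turned with voom (0.029) and the replicate block (0.013), and for Slc4a1ap it turned with limma-trend on log2(TPM + 0.1) (−0.0096, with or without a filter) and log2(TPM + 1) (−0.0092). The cause was not tested. Only 3 libraries a group and low counts, as for Slc7a15 and Slc39a4, limit the precision.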
